A study of Homo sapiens with 2 samples.

Results

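Genes of tRNA maturation, 10 in number, were followed in RNA of HEK293 cells, and 80 of their transcripts were listed among 206696 in each deposited table. They are TRMT10C, HSD17B10 and PRORP, the subunits of mitochondrial RNase P, and the methyltransferase genes TRMT1, TRMT5, TRMT2A, TRMT2B, TRMT61A, TRMT61B and TRMT6. The genes were chosen by function, as the mitochondrial enzymes and their cytosolic counterparts, and not by a rule on measured values. Earlier results of these data were known when the choice was made. They are 10 of the 59026 genes to which transcripts could be assigned by identifier, without version, in the GENCODE release 44 annotation of the human genome build GRCh38.

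The study sequenced total RNA, depleted of rRNA, from HEK293 Flp-In T-Rex cells in 2 libraries, replicate 1 and replicate 2, which form its 1 group. HEK293 is an established line from human embryonic kidney, and the Flp-In T-Rex derivative holds an integration site for transgenes under control of a tetracycline repressor. The cells were untreated and were kept in high glucose DMEM with foetal calf serum. The labels do not say whether the replicates were separate cultures, so the spread between them may be technical.

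A mitochondrial tRNA is cut out of a long transcript of mitochondrial DNA. Its 5′ end is released by mitochondrial RNase P, which in animals is made of proteins alone: PRORP is the nuclease, TRMT10C is a methyltransferase that holds the precursor tRNA, and HSD17B10, a dehydrogenase of fatty acid and isoleucine breakdown, is the scaffold of TRMT10C. TRMT10C with HSD17B10 also methylates the purine at position 9 of many mitochondrial tRNAs. Methyl groups are then set at other places of the tRNA body. TRMT5 forms m1G beside the anticodon and TRMT1 dimethylguanosine between the D and anticodon arms, both in cytosolic and in mitochondrial tRNAs. In the T arm, TRMT2A forms m5U in cytosolic tRNAs and TRMT2B does so in mitochondria. m1A of the T arm is formed by TRMT61A with its partner TRMT6 in cytosolic tRNAs, and by TRMT61B in mitochondrial ones.

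The following mitochondrial tRNA sequences show the purine that TRMT10C methylates, with the base at position 9, counted from the 5′ end that RNase P makes, in capitals. They are known substrates, one with an A and one with a G, and are printed as GENCODE release 44 gives them, in DNA letters without the CCA end. MT-TK, the lysine tRNA, lies at chrM:8295-8364 on the + strand and MT-TI, the isoleucine tRNA, at chrM:4263-4331 on the + strand.
MT-TK: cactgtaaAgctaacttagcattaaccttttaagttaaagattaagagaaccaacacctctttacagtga
MT-TI: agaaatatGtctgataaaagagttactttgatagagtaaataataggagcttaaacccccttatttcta
The tables held 5 and 6 estimated counts of MT-TK in replicates 1 and 2, and 5 and 8 of MT-TI, so the tRNA substrates themselves were close to unmeasured in these libraries.

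Each gene's values were set side by side in 2 units. The normalised count is the authors' estimated count scaled by a size factor of each library. The per-length level is the estimated count divided by transcript length, summed over a gene and scaled to 1000000 per library, and it alone was used to rank genes against each other. Its absolute value depends on what else is in the library total: without misc_RNA, ribozyme and snRNA transcripts in the total, the mean level was 188 for HSD17B10 and 28.1 for TRMT10C in place of 89.4 and 13.4, and with effective lengths it was 25.3 and 3.44. Ratios of genes within a library do not depend on the total. Values are given as mean ± SD over the 2 libraries, and 1 gene was called higher than another only where both libraries gave that order and the means differed by more than the sum of the SDs. In bulk RNA, fewer expressing cells and less RNA per cell cannot be told apart.

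All 10 genes were detected in both libraries, from 263 to 2505 normalised counts. HSD17B10 had the highest per-length level and TRMT6 the lowest, and the order between them was TRMT2A, TRMT1, TRMT10C, PRORP, TRMT2B, TRMT5, TRMT61B and TRMT61A. The median of the members was 11.2, beside 1.87 over all 26370 expressed genes, meaning those that reached 1 normalised count in each library. Of the 45 pairs of members, 39 were ordered beyond the spread between the libraries. The share of such pairs among all genes was not computed. Among the 9 pairs of neighbours, TRMT10C and PRORP, PRORP and TRMT2B, TRMT5 and TRMT61B, and TRMT61B and TRMT61A did not differ beyond it, nor did TRMT10C and TRMT2B or TRMT5 and TRMT61A further apart in the order.

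**Figure D1:**
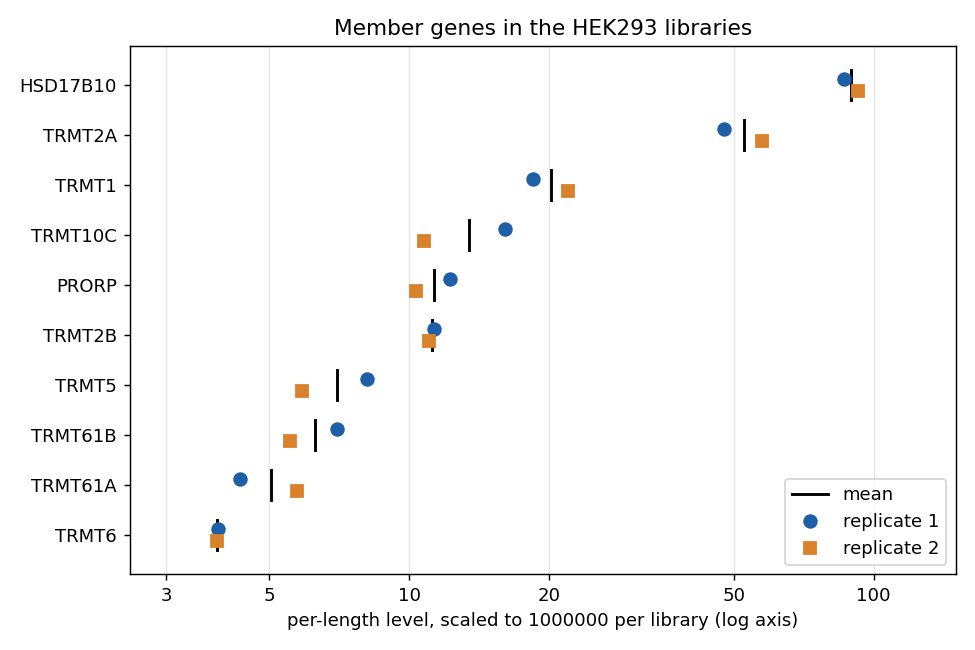
Per-length level (log axis, scaled to 1000000 per library) of each of the 10 genes, with a point for each library and a bar at their mean. HSD17B10 and TRMT2A stand above all others in both libraries, and the range of TRMT61B overlaps those of TRMT5 and TRMT61A.

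Among the subunits of mitochondrial RNase P, the scaffold gene had the highest level. HSD17B10 (ENSG00000072506, chrX:53431258-53434370, − strand) had 2198 and 2318 normalised counts in replicates 1 and 2. Its per-length level was 86.2 and 92.6 (89.4 ± 4.55, n = 2), above that of 97.1% of the expressed genes. TRMT10C (ENSG00000174173, chr3:101561868-101566446, + strand) had 666 and 446 normalised counts, and a per-length level of 16.1 and 10.7 (13.4 ± 3.79). The nuclease gene PRORP (ENSG00000100890, chr14:35121846-35277622, + strand) had 1377 and 1099 normalised counts, and a level of 12.3 and 10.3 (11.3 ± 1.36). HSD17B10 thus lay 5.35-fold and 8.62-fold above TRMT10C, and 7.02-fold and 8.96-fold above PRORP, in replicates 1 and 2, and both orders held beyond the spread. TRMT10C was 1.31-fold and 1.04-fold above PRORP, a difference within the sum of their SDs.

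The counts of each gene were divided among its transcripts by the authors' estimation, and MANE Select names the 1 transcript that the annotation projects chose to represent a gene. TRMT10C has only 2 listed transcripts. The MANE Select transcript TRMT10C-201, which encodes 403 residues, took 482 and 340 normalised counts, or 72.5% (95% exact interval 68.8 to 76.0) and 76.2% (72.1 to 79.9) of the gene. TRMT10C-202, a model whose coding sequence is not complete, took the other 27.5% and 23.8%. It has another 5′ exon than TRMT10C-201 and a shorter 3′ part, and only 7.02% of its 50-nt words occur in no other transcript of the gene. Intervals of shares treat estimated counts as assigned reads. They cover counting error only, and not the error of dividing reads between transcripts.

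HSD17B10 was carried by 1 form. The MANE Select transcript HSD17B10-201, of 261 residues, took 2024 and 2039 normalised counts, or 92.1% (90.9 to 93.2) and 88.0% (86.6 to 89.2). The 4 other listed transcripts of the gene lack a 27-base stretch of its coding sequence at chrX:53431798-53431824 (− strand), and of 9 annotated transcripts 5 were listed. The stretch is shown in capitals between its neighbouring exonic bases in the mRNA, since the bases in capitals separate the form of 261 residues from the one of 252, HSD17B10-203.
HSD17B10-201: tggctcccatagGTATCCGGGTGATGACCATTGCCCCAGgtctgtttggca
HSD17B10-203, which has no 50-nt word of its own, was estimated at 54.2 and 137 normalised counts, or 2.47% and 5.91% of the gene. Its estimated share was thus higher in replicate 2, and the intervals of the libraries (1.83 to 3.22 and 5.03 to 6.92) did not overlap. Without a word of its own, its count rests on the division of reads, which these intervals leave out.

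PRORP counts were spread over several coding forms. PRORP-203, the MANE Select transcript of 583 residues, took 704 and 596 normalised counts, or 51.1% (48.3 to 53.8) and 54.2% (51.4 to 57.1). PRORP-201, of 567 residues, took 430 and 332, or 31.2% and 30.2%. The 16 residues between them are encoded by 48 bases at chr14:35126735-35126782 (+ strand), which PRORP-201 skips.
PRORP-203: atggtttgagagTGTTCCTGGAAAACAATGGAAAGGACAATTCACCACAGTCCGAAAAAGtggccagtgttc
Transcripts with these bases held 53.6% (50.8 to 56.3) and 54.7% (51.9 to 57.6) of the counts on transcripts that span the place. Divided by transcript length, the share with the bases was 39.9% and 36.7%, so per length the forms without them were the more abundant in both libraries. PRORP-201 has no 50-nt word of its own and PRORP-203 has 8 of 6137, so nearly all bases that separate them are shared with further transcripts of the gene. PRORP-209, of 488 residues, was at 31.6 normalised counts in replicate 1 and at 0 in replicate 2, where 3 counts would be 0.253% of the gene. An overlapping gene model on the same strand, ENSG00000258790, shares 46.2% of the exonic bases of PRORP-203 and was itself given 15.6 and 0 normalised counts.

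TRMT1 and TRMT5 act in both compartments and differed in level. TRMT1 (ENSG00000104907, chr19:13104902-13117567, − strand) had 852 and 1028 normalised counts, and a per-length level of 18.5 and 22.0 (20.2 ± 2.44). TRMT5 (ENSG00000126814, chr14:60971441-60981170, − strand) had 704 and 527 normalised counts, and a level of 8.11 and 5.89 (7.001 ± 1.57). TRMT1 was 2.28-fold and 3.73-fold above TRMT5, beyond the spread between the libraries. With protein-coding transcripts only, the TRMT1 level was 12.3 and the log2 ratio of TRMT1 to TRMT5 was 0.81, beside 1.53 with all transcripts, and the call held. With complete coding sequences only, which also lowers TRMT5, the log2 ratio was 1.66.

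TRMT1 has 23 listed transcripts, of which 10 were at 0 in both libraries. The MANE Select transcript TRMT1-202, of 659 residues, took 586 and 739 normalised counts, or 68.8% (65.5 to 72.01) and 71.9% (69.1 to 74.5). TRMT1-222, annotated as a retained-intron transcript without a coding sequence, took 128 and 109, or 15.1% (12.6 to 17.7) and 10.6% (8.80 to 12.5). It keeps a 90-base intron at chr19:13105397-13105486 (− strand) that TRMT1-202 removes. The intron is in capitals, and it opens with GT and closes with AG as spliced introns do.
TRMT1-222: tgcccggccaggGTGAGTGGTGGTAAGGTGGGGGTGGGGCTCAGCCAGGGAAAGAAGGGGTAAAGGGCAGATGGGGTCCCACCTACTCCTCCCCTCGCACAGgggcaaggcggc
Transcripts with the intron held 18.5% (15.7 to 21.5) and 11.6% (9.68 to 13.7) of the counts on transcripts spanning it. The share was lower in replicate 2 and the intervals did not overlap. Over the whole gene, transcripts annotated as protein-coding held 72.9% and 80.4% of the counts, retained-intron transcripts 21.8% and 14.3%, and transcripts annotated for nonsense-mediated decay (NMD), the pathway that degrades mRNAs with an early stop, 5.11% and 5.25%. TRMT1-203, which encodes the same number of residues as TRMT1-202 and has only 5 words of its own among 2214, was at 0.01 normalised counts in replicate 1 and 72.4 in replicate 2.

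TRMT5 was led by its MANE Select transcript TRMT5-201, of 509 residues, with 646 and 488 normalised counts, or 91.8% (89.4 to 93.7) and 92.7% (90.3 to 94.8). TRMT5-201 is 5304 nt long and the other listed transcripts are 560 and 572 nt, so its mean share fell to 55.8% when counts were divided by length. Both short transcripts are models with an incomplete coding sequence.

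Of the m5U enzymes, the cytosolic one had the higher level. TRMT2A (ENSG00000099899, chr22:20111875-20117392, − strand) had 2113 and 2505 normalised counts, and a per-length level of 47.6 and 57.4 (52.5 ± 6.94), above that of 94.6% of the expressed genes. TRMT2B (ENSG00000188917, chrX:101009346-101052116, − strand) had 980 and 955 normalised counts, and a level of 11.3 and 11.1 (11.2 ± 0.176). The cytosolic gene was 4.21-fold and 5.20-fold above the mitochondrial one, beyond the spread. The size of this ratio depended on the transcripts counted: the log2 ratio of TRMT2B to TRMT2A was -2.23 with all transcripts, -1.56 with protein-coding transcripts only, -1.55 with gene counts divided by the canonical length, and -0.73 with complete coding sequences only, where the TRMT2A level was 18.4. Its direction and the call held in each. RANBP1 lies on the opposite strand and covers 393 bases, or 13.6%, of the exons of the MANE Select transcript of TRMT2A. RANBP1 was at 8389 and 7918 normalised counts, and without a stated strand setting the reads of these bases cannot be told apart. Their part in the TRMT2A level was not tested.

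TRMT2A was the member with the smallest share on its leading transcript. Its MANE Select transcript TRMT2A-201, of 625 residues, took 991 and 947 normalised counts, or 46.9% (44.7 to 49.1) and 37.8% (36.0 to 39.7). TRMT2A-206, a short model with an incomplete coding sequence, took 299 and 284 normalised counts, or 14.2% and 11.3%. Per length, TRMT2A-206 was the highest transcript of the gene, with a mean share of 27.6% beside 23.5% for TRMT2A-201. TRMT2A-218, a retained-intron transcript, took 254 and 283 normalised counts, or 12.03% and 11.3%. TRMT2A-204, of 643 residues, took 228 and 232, or 10.8% and 9.26%. It uses an exon that is 54 bases longer, at chr22:20113508-20113561 (− strand), which adds 18 residues.
TRMT2A-204: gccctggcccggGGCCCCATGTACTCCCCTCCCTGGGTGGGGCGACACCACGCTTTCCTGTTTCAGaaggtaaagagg
Transcripts with these bases held 13.3% (11.7 to 15.1) and 12.8% (11.4 to 14.3) of the counts on transcripts spanning the place, with overlapping intervals. Retained-intron transcripts together held 24.8% and 29.3% of the gene, and protein-coding transcripts 75.2% and 70.7%. TRMT2A-217 and TRMT2A-214, both annotated with a retained intron, were at 0 in replicate 1 and at 80.8 and 25.3 normalised counts in replicate 2. TRMT2A-203, of 562 residues and named after its values were seen, went from 71.1 to 308 normalised counts, or from 3.37% to 12.3% of the gene.

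TRMT2B was the 1 member not led by its MANE Select transcript. TRMT2B-206 took 681 and 679 normalised counts, or 69.4% (66.3 to 72.3) and 71.1% (68.2 to 73.8). The MANE Select transcript TRMT2B-202 took 124 and 251, or 12.6% (10.6 to 14.9) and 26.2% (23.6 to 29.0). Both encode 504 residues and differ in the exons upstream of the coding sequence, so the choice between them concerns the 5′ end of the mRNA and not the protein length. TRMT2B-203, of 459 residues, was at 155 normalised counts (15.8%) in replicate 1 and at 0 in replicate 2, where 3 counts would be 0.291% of the gene. It lacks an exon of 135 bases at chrX:101037917-101038051 (− strand), which encodes 45 residues and is in capitals here.
TRMT2B-206: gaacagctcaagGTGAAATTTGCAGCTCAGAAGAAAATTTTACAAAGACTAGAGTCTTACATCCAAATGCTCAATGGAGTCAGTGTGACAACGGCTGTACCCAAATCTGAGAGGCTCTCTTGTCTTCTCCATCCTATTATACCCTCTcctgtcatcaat
The estimated share of counts with the exon was thus 84.2% (81.7 to 86.5) in replicate 1 and 100% (99.6 to 100) in replicate 2. The gene total and TRMT2B-206 hardly differed between the libraries, while TRMT2B-202, which has the exon, rose as TRMT2B-203 fell to 0. Only 3.10% of the words of TRMT2B-203 occur in no other transcript of the gene. Its count thus rests largely on the division of reads, which the intervals leave out. Whether that division moved reads from TRMT2B-203 to TRMT2B-202 was not tested.

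The m1A enzymes of the T arm were the lowest members together with TRMT5. TRMT61A (ENSG00000166166, chr14:103529196-103537073, + strand), the catalytic subunit of the cytosolic enzyme, had 386 and 503 normalised counts, and a per-length level of 4.33 and 5.74 (5.04 ± 0.997). TRMT6 (ENSG00000089195, chr20:5937228-5950558, − strand), its partner subunit, had 314 and 308 normalised counts, and a level of 3.87 and 3.85 (3.86 ± 0.0114). TRMT61A was 1.12-fold and 1.49-fold above TRMT6, which passed the call. When the libraries were corrected for GC content the log2 ratio of TRMT6 to TRMT61A hardly moved, from -0.38 to -0.36, but the call was lost. TRMT61B (ENSG00000171103, chr2:28849821-28870309, − strand), the mitochondrial enzyme, had 296 and 263 normalised counts, and a level of 6.99 and 5.53 (6.26 ± 1.03). TRMT61B was 1.61-fold above TRMT61A in replicate 1 and at 0.963 of it in replicate 2, so the libraries gave opposite orders. On the opposite strand, SPDYA covers 25.5% of the exons of the MANE Select transcript of TRMT61B, and was at 31.6 and 13.1 normalised counts.

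TRMT61A and TRMT6 were each carried by 1 transcript. TRMT61A-202, the MANE Select transcript of 289 residues, took all counts of its gene in both libraries; TRMT61A-201 was at 0, where 3 counts would be 0.822% and 0.554% of the gene. TRMT6-201, of 497 residues, took 302 and 274 normalised counts, or 96.0% (93.0 to 97.9) and 89.0% (85.0 to 92.0).

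TRMT61B had a second form annotated for NMD. Its MANE Select transcript TRMT61B-201, of 477 residues, took 231 and 177 normalised counts, or 78.2% (72.9 to 82.9) and 67.4% (61.5 to 72.7). TRMT61B-203 took 36.1 and 85.9, or 12.2% (8.56 to 16.6) and 32.6% (27.3 to 38.5). It skips an exon of 227 bases at chr2:28851072-28851298 (− strand), in capitals here; 227 is not a multiple of 3, so the reading frame changes after it, and the annotated coding sequence of TRMT61B-203 has 366 residues.
TRMT61B-201: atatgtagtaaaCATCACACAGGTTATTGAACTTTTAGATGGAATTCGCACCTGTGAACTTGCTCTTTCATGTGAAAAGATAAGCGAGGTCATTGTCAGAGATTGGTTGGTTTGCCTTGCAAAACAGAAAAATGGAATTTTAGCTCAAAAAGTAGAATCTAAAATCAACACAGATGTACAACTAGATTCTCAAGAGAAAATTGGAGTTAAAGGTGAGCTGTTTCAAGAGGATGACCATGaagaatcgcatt
Of the counts on transcripts spanning the exon, 86.5% (81.7 to 90.5) had it in replicate 1 and 67.4% (61.5 to 72.7) in replicate 2. The share without the exon was thus higher in replicate 2, although the TRMT61B total was slightly lower there.

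**Figure D2:**
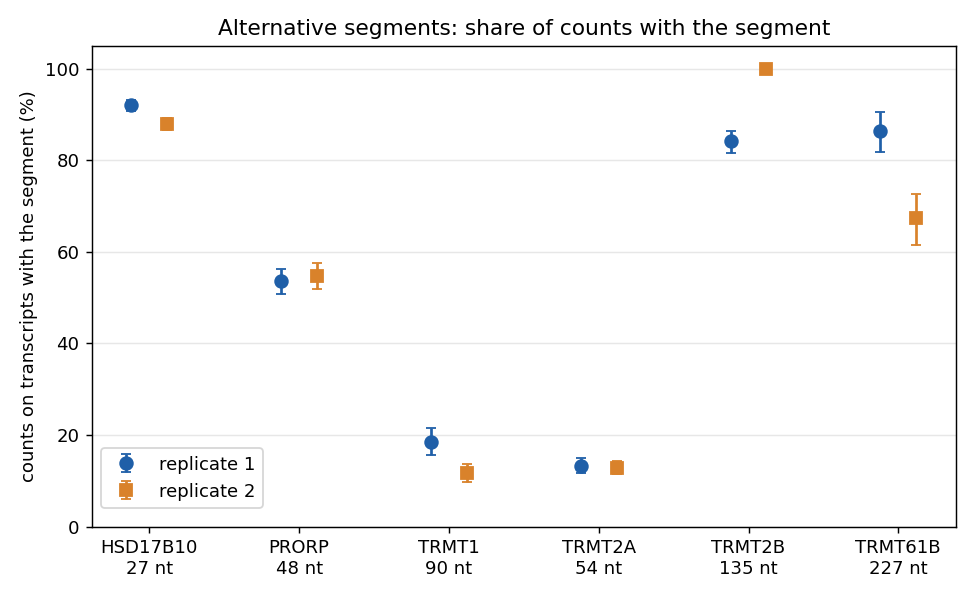
Share of counts on transcripts with each alternative segment (bases in capitals above), in percent of the counts on transcripts that span it, per library; bars are exact 95% intervals for counting error. The intervals of the libraries overlap for PRORP and TRMT2A and do not overlap for HSD17B10, TRMT1, TRMT2B and TRMT61B. The error of dividing reads between transcripts is not in the intervals.

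Across the set, the transcript with the highest count was the same in both libraries in 10 of 10 genes. It differed in 21.5% of all 16735 expressed genes that have several transcripts, many of them at lower totals than the members. Among genes with a total of at least 100 normalised counts in both libraries, which all members reached, it was the same in 84.4%. By normalised counts, the transcript with the highest mean was the MANE Select one in 9 of 10 members, TRMT2B being the exception, beside 57.3% of 13413 genes. Per length, TRMT2A was led by TRMT2A-206 and not by its MANE Select transcript. The leading transcript had a median share of 73.5% among the members and 65.8% among all genes. For the MANE Select lead and the median share, no all-gene value was computed at a total of at least 100. Single transcripts were less steady than genes: of the 40 member transcripts whose mean reached 10 normalised counts, 14 (35%) differed by more than 2-fold between the libraries, beside 29.4% of 65698 transcripts. The 5 with the largest differences were TRMT2B-203, TRMT2A-217, TRMT1-203, PRORP-209 and TRMT2A-214, each at or near 0 in 1 library. Each had at most 12.5% of its 50-nt words to itself, but this did not set them apart. TRMT1-202 and TRMT2A-201, which stayed within 2-fold, had 0% of their words to themselves. Of the 80 listed transcripts, 24 were at 0 in both libraries, 9 at 0 in replicate 1 only and 8 in replicate 2 only.

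**Figure D3:**
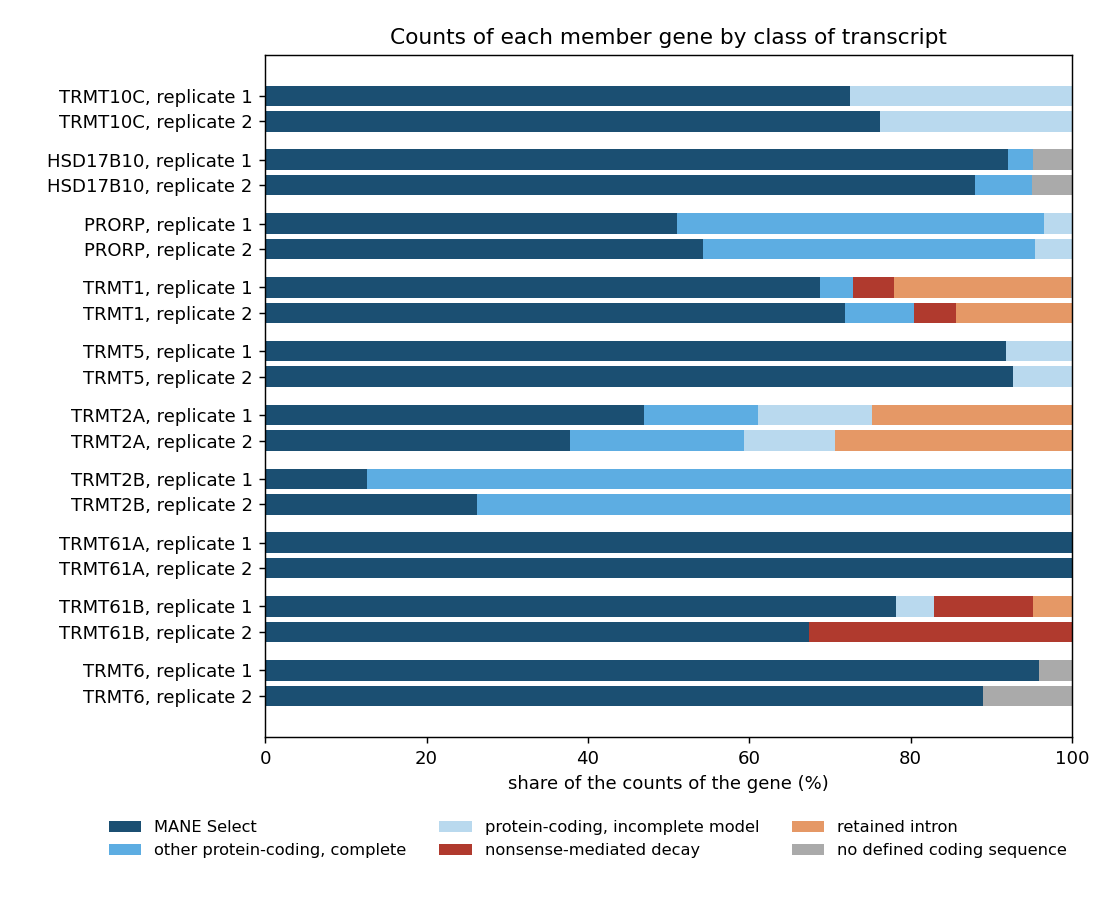
Share of the counts of each gene (percent) on its MANE Select transcript and on other classes of annotated transcripts, with a bar for each gene and library. TRMT2B is the 1 gene with little on the MANE Select transcript, retained-intron transcripts hold 14.3% to 29.3% of TRMT1 and TRMT2A, and the NMD class holds 12.2% and 32.6% of TRMT61B.

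The gene totals differed less between the libraries. None of the 10 members differed by more than 2-fold, beside 5.23% of the 19110 genes whose mean reached 10 normalised counts. On the scale of log2(normalised count + 1), TRMT10C had the largest difference, replicate 2 minus replicate 1, at -0.57, followed by TRMT5 at -0.42, TRMT61A at 0.38 and PRORP at -0.33. TRMT1 was at 0.27, TRMT2A at 0.25, TRMT61B at -0.17, HSD17B10 at 0.08, TRMT2B at -0.04 and TRMT6 at -0.03.

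These differences were ordered by base composition. All 6 members with a GC content under 50% in the canonical transcript were lower in replicate 2, and all 4 with at least 50% were higher. TRMT10C, TRMT5, PRORP, TRMT6 and TRMT61B had 39.0%, 39.2%, 41.6%, 41.9% and 43.6% GC, TRMT2B had 49.99%, and HSD17B10, TRMT1, TRMT2A and TRMT61A had 57.4%, 61.2%, 63.3% and 64.7%. Spearman's rho between GC content and the difference was 0.952 over the 10 genes, which share the libraries. Over 11170 protein-coding genes whose mean reached 100 normalised counts it was 0.841, and the medians of 10 groups of genes by GC content ran from -0.46 to 0.38. With transcript length rho was -0.0926. After subtracting the median of the genes of like GC content, the mean absolute difference of the members fell from 0.252 to 0.0909; TRMT10C remained at -0.22, and TRMT6 came to 0.27 because genes of its composition were lower in replicate 2. The levels of TRMT10C, TRMT5, PRORP, TRMT1, TRMT2A and TRMT61A, and the ratios built on them, carry this difference between the libraries.

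**Figure D4:**
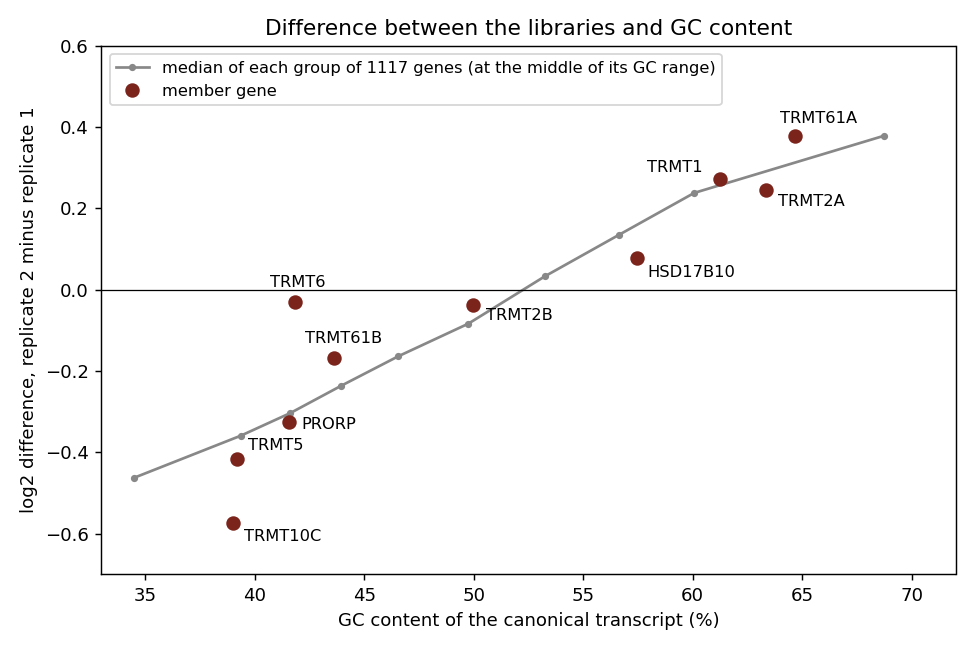
Difference of log2(normalised count + 1) between the libraries against the GC content (percent) of the canonical transcript, for the 10 members and for the medians of 10 groups of 1117 genes. Members under 50% GC lie below 0 and those above it lie over 0, along the line of all genes except TRMT6 and TRMT10C.

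Other genes of tRNA processing and methylation lay on both sides of the members. Of 11 genes, 3 had a per-length level above the median of the members, namely TRMT112 (110 ± 1.11), an activating subunit of several methyltransferases, ELAC2 (67.8 ± 1.13), the nuclease that trims the 3′ end of tRNAs in nucleus and mitochondria, and TRMT11 (29.9 ± 5.99), the partner of TRMT112 in guanosine methylation. ELAC2 lay between HSD17B10 and TRMT2A, and so above the nuclease of the 5′ end, PRORP. TRNT1 (11.2 ± 2.21), which adds the CCA end, was level with PRORP and TRMT2B. TRMT1L (10.8 ± 1.28), the paralogue of TRMT1, and TRMT44 (9.59 ± 1.55) came next, then TRMT12 (6.29 ± 0.470) and TRMT13 (5.25 ± 1.08). The paralogues of TRMT10C outside mitochondria were lower than it: TRMT10B was at 4.42 and 4.50 and TRMT10A at 2.33 and 1.93, and both fell short of TRMT10C by more than the sum of the SDs. TRMO was at 2.87 ± 0.257. In normalised counts, and not per length, 9 of these 11 genes were lower in replicate 2. Over 11170 protein-coding genes whose mean reached 100, the median log2 difference was -0.106. None of the 11 passed 2-fold, beside 5.23% of the 19110 genes whose mean reached 10 normalised counts.

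The libraries held 25158962 and 27143860 estimated counts, of which 96.9% and 96.8% were on matched transcripts. Of the genes taken as HEK293 markers, VIM, KRT8, KRT18 and NEFL had per-length levels of 307, 41.7, 38.7 and 22.3, while PAX2 (0.694) and NEFM (0.281) were low and SOX11 had 2 estimated counts in replicate 1 and 0 in replicate 2. ALB, PTPRC, CD3E and INS, which mark liver, blood and endocrine pancreas, were at 0 in both libraries, and APOA1 was at 0.237. The erythroid gene HBB was at 20.2 and 20.9, from 169 and 196 estimated counts.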

How the data were processed

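Total RNA of HEK293 Flp-In T-Rex cells was depleted of rRNA and made into TruSeq libraries, per the labels. The submitters' processing notes name FastQC, STAR 2.7.0d, RSEM 1.3.3 and R 3.6.3, and the study names GRCh38 for its sequencing reads. A strand setting was not given in the sources used here. Deposited tables hold, per transcript, an estimated count that the authors made with RSEM, which divides reads between transcripts, and a normalised signal, which is the deposited count over 1 size factor per library (0.945 and 1.08). A second table per library, of METTL8 transcripts, was not used here.

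Transcripts were matched without version to GENCODE release 44 (202217 of 206696; 173547 with the same version). All 10 MANE Select transcripts of the members had another version there, so their lengths may differ from the models behind the counts. Counts were summed per gene, and per-length levels were made without effective length. With 1 group no groups were compared, and as the smallest two-sided sign-flip p of 2 libraries is 0.5, no test was made. Shares have exact (Clopper-Pearson) 95% intervals, and a 0 is given the limit of 3 counts. Log2 differences used a pseudocount of 1. Words of 50 nt were compared among the transcripts of a gene. Members, gene lists and transcripts named (a mean share of at least 10%, MANE Select, or among the 5 largest differences between the libraries) were chosen with earlier results of these data known. HSD17B10-203, TRMT61A-201 and TRMT2A-203 were named outside this rule. Python 3.11.15, pandas 2.3.3, numpy 2.4.6 and scipy 1.17.1 were used.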

Additional observations from a re-analysis of the deposited data

How the results depend on the processing

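With 2 libraries every value rests on both, and counts divided between transcripts with few bases of their own are less certain than gene totals at this depth. No paired analysis was possible because there is 1 group. A single library gives no SD and so no call of an order; without 1 replicate the median share of the leading transcript ran from 74.0% to 75.3%. With normalised counts, which are not divided by length and so favour long transcripts, the log2 ratio of TRMT61B to TRMT61A turned to -0.67 and that of TRMT10C to PRORP to -1.15, and 5 of the 39 called pairs had the opposite order; 1 did with protein-coding transcripts only (TRMT10C and TRMT1) and 3 with transcripts of the same version only, which drop every MANE Select transcript of the members. None of the 39 did under the other 5 settings. Complete coding sequences only and counts centred on genes of like GC content were settings chosen after seeing the data. The latter gave 0.32 for TRMT61B to TRMT61A and 0.22 for TRMT10C to PRORP, both past the call, and -0.36 for TRMT6 to TRMT61A, no longer past it. In the main setting these ratios were 0.31, 0.25 and -0.38, and so hardly moved. Centring alters the spread between the libraries that the call uses, so the gained calls are no added support. Among the ratios that were called, the log2 ratio of TRMT10C to HSD17B10 was -2.02 with normalised counts and -1.17 with the same version only, that of PRORP to HSD17B10 -0.87 and -0.64, that of TRMT2B to TRMT2A -1.25 and that of TRMT1 to TRMT5 0.61 with normalised counts; all stayed past the call. Other genes above the member median numbered 5 with effective length, and 5 with transcripts at 0.1 normalised counts or more in both libraries. The median share of the leading transcript was 63.1% per length, 76.8% with that filter and 92.1% among protein-coding transcripts. The protein-coding share was 60.5% for TRMT1 and 62.6% for TRMT2A per length, and 21.7%, 61.9% and 10.9% for TRMT1, TRMT2A and TRMT61B with the same version only. Member transcripts past 2-fold numbered 25 of 54 at a mean of at least 1 and 2 of 21 at a mean of at least 100. The share over all transcripts was not computed at these limits, so these counts show nothing particular to the members.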
